A study of Mus musculus with 8 samples.

Results

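Collagen genes were examined in RNA sequencing of the mouse auditory nerve. The set comprises every gene of the table whose symbol has the form Col, digits, a, digits, which gave 39 of 15035 genes. They were sorted by protein class into 11 fibrillar collagens, 8 basement membrane collagens and 20 others. Nerves were dissected from cochleas at postnatal day 21, and each library was made from both cochleas (2) of 1 mouse. 4 libraries were labelled wildtype (numbers 1 to 4) and 4 Mef2c-heterozygote (numbers 5 to 8). The labels name no treatment, strain, sex or litter. How the Mef2c allele was made, and in which cells it is lost, is not given in the sources used here. P-values measure the spread between these mice only.

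Collagens are extracellular proteins in which 3 chains wind into a triple helix, and each gene encodes a chain. Fibrillar collagens (types I, II, III, V and XI among them) assemble into the fibrils of connective tissue, bone and cartilage. Type IV forms the network of basement membranes, which in a nerve surround each Schwann cell and its axon as well as the blood vessels. In the cochlea, types II, IX and XI are also known from the tectorial membrane, the gel that overlies the hair cells, and from the fibres of the spiral limbus. Bone of the modiolus encloses the spiral ganglion, and bone matrix is made mostly of type I collagen.

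Mef2c encodes a transcription factor of the MADS-box family and was the gene targeted. Its transcript had 462.0 ± 50.4 normalized counts in the wild-type libraries and 668.3 ± 66.8 in the heterozygote-labelled libraries (SD, n = 4 each), which goes against the label, since all 4 of the latter lay above every wild-type library. The values are sums over the gene and carry no exon detail, so they do not check a deleted exon. Directions below are therefore between libraries as labelled. The depth was estimated at 13363365 to 21507209 reads per library. Xist, expressed from the inactive X chromosome, stood at 12 (wild-type library 1) and 7.6 (heterozygote-labelled library 5) normalized counts, and at 5175 or more in the other 6. Spiral ganglion neuron and Schwann cell markers were high in every library, with summed levels of 222182 to 297796 and 148678 to 175964 normalized counts in the lists of 12 and 10 genes, and none of these 22 genes was missing from the table.

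Collagen transcripts as a group were higher in the heterozygote-labelled libraries, but no single collagen gene passed the test across all genes. In the limma-trend fit, 0 of 39 had a Benjamini-Hochberg adjusted p under 0.05, against 0.0807% of the 14870 genes tested. At an unadjusted p under 0.05 there were 13 collagen genes (33.3%), all higher, where 14.1% of all genes reached that level, 6.72% higher and 7.34% lower. The log2 fold change was above 0 for 34 of 39, against 52.3% of all genes. The median log2 fold change was 0.24 over the collagen genes and 0.02 over all genes tested. In 6 collagen genes every library labelled heterozygote lay above every wild-type library, a pattern found in 3.40% of all genes, and in 0 did the reverse hold. All 39 passed the filter on low values in every library, the lowest value being 29.8 normalized counts for Col20a1. In the authors' deposited table, 5 collagen genes (Col9a2, Col11a1, Col11a2, Col6a3 and Col9a1) had an FDR under 0.05, all higher, against 1.61% of the genes with an FDR in that table, or 0.672% counting those higher.

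**Figure D1:**
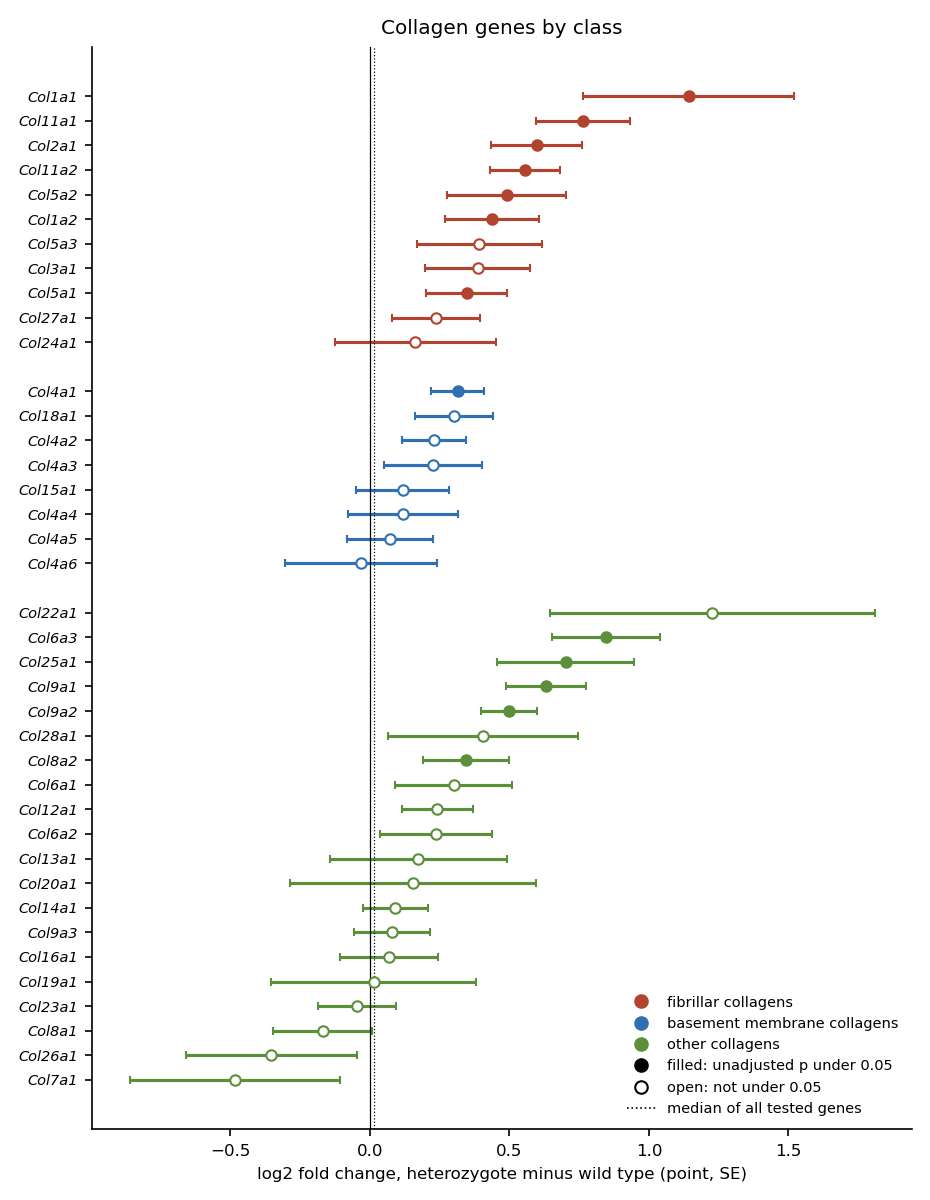
Log2 fold change (heterozygote minus wild type, point with standard error) of the 39 collagen genes, sorted within 3 classes. Filled points mark the 13 genes with an unadjusted limma-trend p under 0.05, and all of them lie to the right of 0; the dotted line is the median of all genes tested, 0.02.

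The levels of collagen transcripts spanned more than 2 orders of magnitude. Per kb of the longest annotated transcript, the mean over all 8 libraries ran from 7.10 normalized counts for Col7a1, the anchoring fibril collagen of skin, to 2730 for Col1a2, a chain of type I. After Col1a2 came Col11a2 (2007 per kb), Col9a2 (1136), Col2a1 (1111) and Col1a1 (985), then Col9a3 (691), the network collagen Col8a1 (498) and Col3a1 (412). The place of Col1a1 differs between the groups: its mean was 666 per kb in wild type, below the 675 of Col9a3, and 1304 in the heterozygote-labelled libraries. The values of Col9a2, Col2a1 and Col1a1 per kb overlapped between libraries, so their order is not resolved. The chains of types II, IX and XI together made up 40.3% ± 2.16 of all collagen transcript per kb in wild type and 42.3% ± 2.67 in the heterozygote-labelled libraries (SD, n = 4 each). Basement membrane collagens made up 7.46% ± 1.46 and 6.37% ± 0.54. The 39 genes held 0.344% ± 0.0717 of all normalized counts in wild type and 0.467% ± 0.0457 in the heterozygote-labelled libraries (SD, n = 4 each). Wild-type library 1, at 0.448%, lay inside the range of the heterozygote-labelled libraries (0.430% to 0.533%), and the other 3 wild-type libraries lay below it (0.291% to 0.334%). In bulk tissue, more cells of a type and more RNA per cell cannot be told apart, which holds for every level given here.

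**Figure D2:**
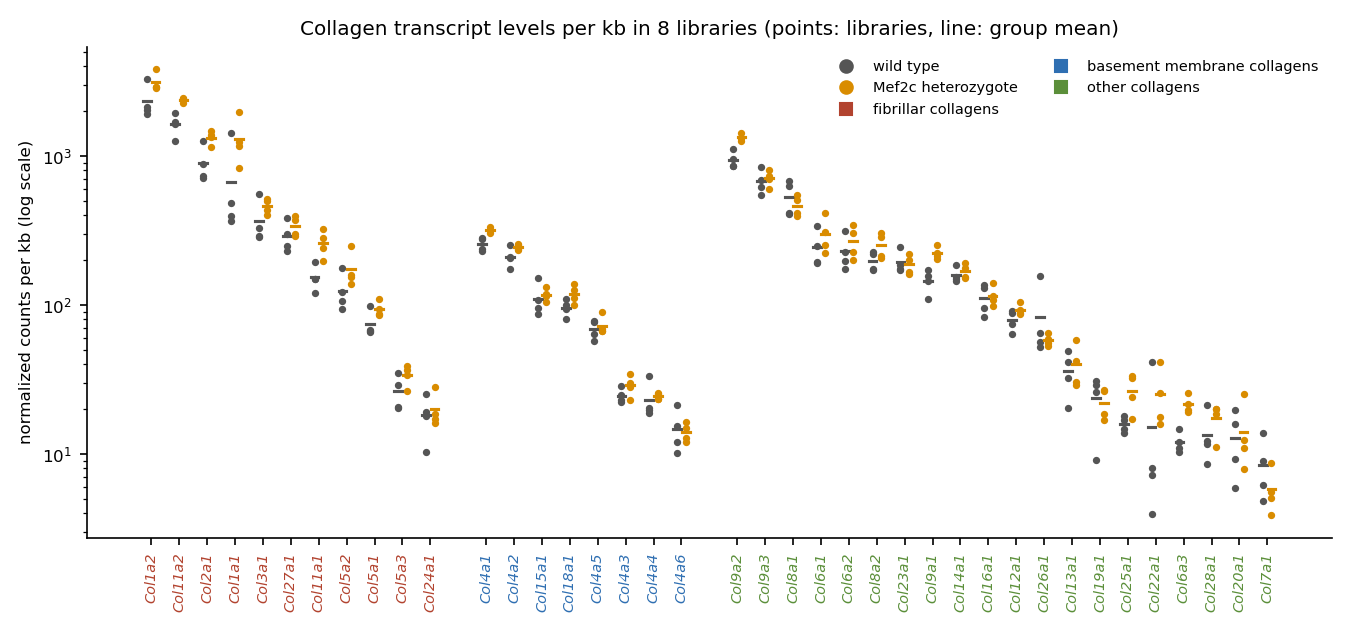
Normalized counts per kb of transcript (log axis) for each collagen gene, ordered by level within the 3 classes, with a point per library and a line at each group mean. Col1a2 and Col11a2 have the highest means in both groups, and Col7a1 has the lowest, at 8.42 in wild type and 5.78 in the heterozygote-labelled libraries.

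Types II and XI are the fibril-forming collagens of cartilage, and type IX sits on the surface of the same fibrils. Of their 6 chains, 5 had an unadjusted p under 0.05, all higher, where 6.72% of all genes were higher at that level. In 4 of 6 the groups did not overlap, with the heterozygote-labelled libraries higher, as in 3.40% of all genes. This set of 6 was put together after its values were seen. For 3 of the 4 non-overlapping genes, Col11a1, Col11a2 and Col9a1, the 250 bases before a RefSeq transcript start are shown (GRCm38.p6, 5′ to 3′ on the strand of the gene, with CCAAT boxes, GC boxes (GGGCGG) and TATA boxes (TATAAA) on either strand in capitals), because all 3 were higher in the heterozygote-labelled libraries. The window of the fourth, Col9a2, is not shown because it overlaps the annotated start of that gene in GENCODE M21. The windows are chr3:114030290-114030539 (+) for Col11a1, chr17:34038888-34039137 (+) for Col11a2 and chr1:24177360-24177609 (+) for the upstream of 2 starts of Col9a1.
Col11a1: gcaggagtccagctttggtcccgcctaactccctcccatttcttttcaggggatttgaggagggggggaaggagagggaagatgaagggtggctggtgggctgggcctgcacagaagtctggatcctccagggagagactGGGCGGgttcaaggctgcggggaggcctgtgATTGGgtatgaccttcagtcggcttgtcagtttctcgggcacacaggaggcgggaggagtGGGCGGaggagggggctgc
Col11a2: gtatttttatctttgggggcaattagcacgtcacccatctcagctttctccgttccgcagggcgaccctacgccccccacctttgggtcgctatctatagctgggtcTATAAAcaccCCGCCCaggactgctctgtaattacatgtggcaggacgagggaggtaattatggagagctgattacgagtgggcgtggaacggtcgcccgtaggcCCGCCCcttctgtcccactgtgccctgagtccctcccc
Col9a1: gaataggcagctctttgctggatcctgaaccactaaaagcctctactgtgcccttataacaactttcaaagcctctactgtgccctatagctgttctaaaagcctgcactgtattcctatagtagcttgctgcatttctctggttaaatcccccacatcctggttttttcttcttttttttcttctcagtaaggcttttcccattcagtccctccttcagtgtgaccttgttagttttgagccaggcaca

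Upstream sequence of this length was found for 30 of the 39 genes, in 33 windows. The Col11a1 window held 2 GC boxes, 110 and 19 bases before the start, and a CCAAT box on the reverse strand at 79 bases. In the Col11a2 window there were a TATA box at 143 bases and 2 GC boxes on the reverse strand at 133 and 38 bases. None of the 3 motifs was found in the Col9a1 window shown, and the window of the downstream start of Col9a1 held a CCAAT box at 18 bases. A GC box was present in 19 of the 33 collagen windows, against 32.7% of all 32851 windows, and a CCAAT box in 11 of 33, against 33.8%. The SOX motif ACAAAG was in 3 of 33 (Col3a1, Col20a1 and Col28a1), against 16.5%, and ACAATG in 1 of 33 (Col28a1), against 10.7%. The MEF2 consensus, searched on both strands, was in 1 of 33, that of Col13a1, against 2.92% of all windows. These are letter matches in short windows, and no binding was measured.

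Col9a2 encodes the alpha 2 chain of type IX (chr4:121039385-121055322, + strand, GENCODE M21 on GRCm38). In wild-type libraries 1 to 4 it stood at 3244, 2770, 2514 and 2509 normalized counts, an order kept for all genes below. The heterozygote-labelled libraries had 3878, 4147, 3855 and 3654. Every one of the latter was thus above every wild-type library. The means were 2759 ± 346 and 3883 ± 202 (SD, n = 4 each), a ratio of 1.41. The log2 fold change of 0.50 (SE 0.10) came with the smallest p of any collagen gene (unadjusted limma-trend p 0.000317, adjusted p 0.110).

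Col11a2 and Col11a1 encode 2 chains of type XI, which sets the diameter of type II fibrils, and mutations in either are known causes of hearing loss. Col11a2 (chr17:34039437-34066685) had 11782, 10230, 7636 and 9945 normalized counts in the wild-type libraries and 14521, 14453, 14881 and 13665 in those labelled heterozygote. Col11a1 (chr3:114030540-114220718) had 1491, 1148, 1148 and 922, and then 1847, 1521, 2474 and 2169. In neither gene did the groups overlap, although heterozygote-labelled library 6 stood only just above wild-type library 1 for Col11a1. The log2 fold changes were 0.56 (SE 0.12) for Col11a2 and 0.76 (SE 0.17) for Col11a1, and their limma-trend adjusted p were 0.162 and 0.160.

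Col9a1, the alpha 1 chain of type IX (chr1:24177610-24252684), had 597.0, 658.4, 551.8 and 422.7 normalized counts in wild type and 974.3, 780.7, 853.8 and 816.6 in the heterozygote-labelled libraries. The groups did not overlap, with a log2 fold change of 0.63 (SE 0.14, limma-trend adjusted p 0.163). Col2a1, the chain of type II (chr15:97975602-98004695), had 6431, 4512, 3714 and 3641, and then 6787, 5829, 7444 and 7008. Wild-type library 1 lay above heterozygote-labelled library 6 for this gene, and the other 3 wild-type libraries lay below all 4. The log2 fold change of Col2a1 was 0.60 (SE 0.16, limma-trend adjusted p 0.222). Col9a3, the alpha 3 chain that joins the other 2 in the type IX trimer, had overlapping groups, at 2055 ± 389 and 2156 ± 264 (SD, n = 4 each), with a log2 fold change of 0.08 and an adjusted p of 0.807. Whether Col9a3 differs in response from its partner chains was not tested.

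**Figure D3:**
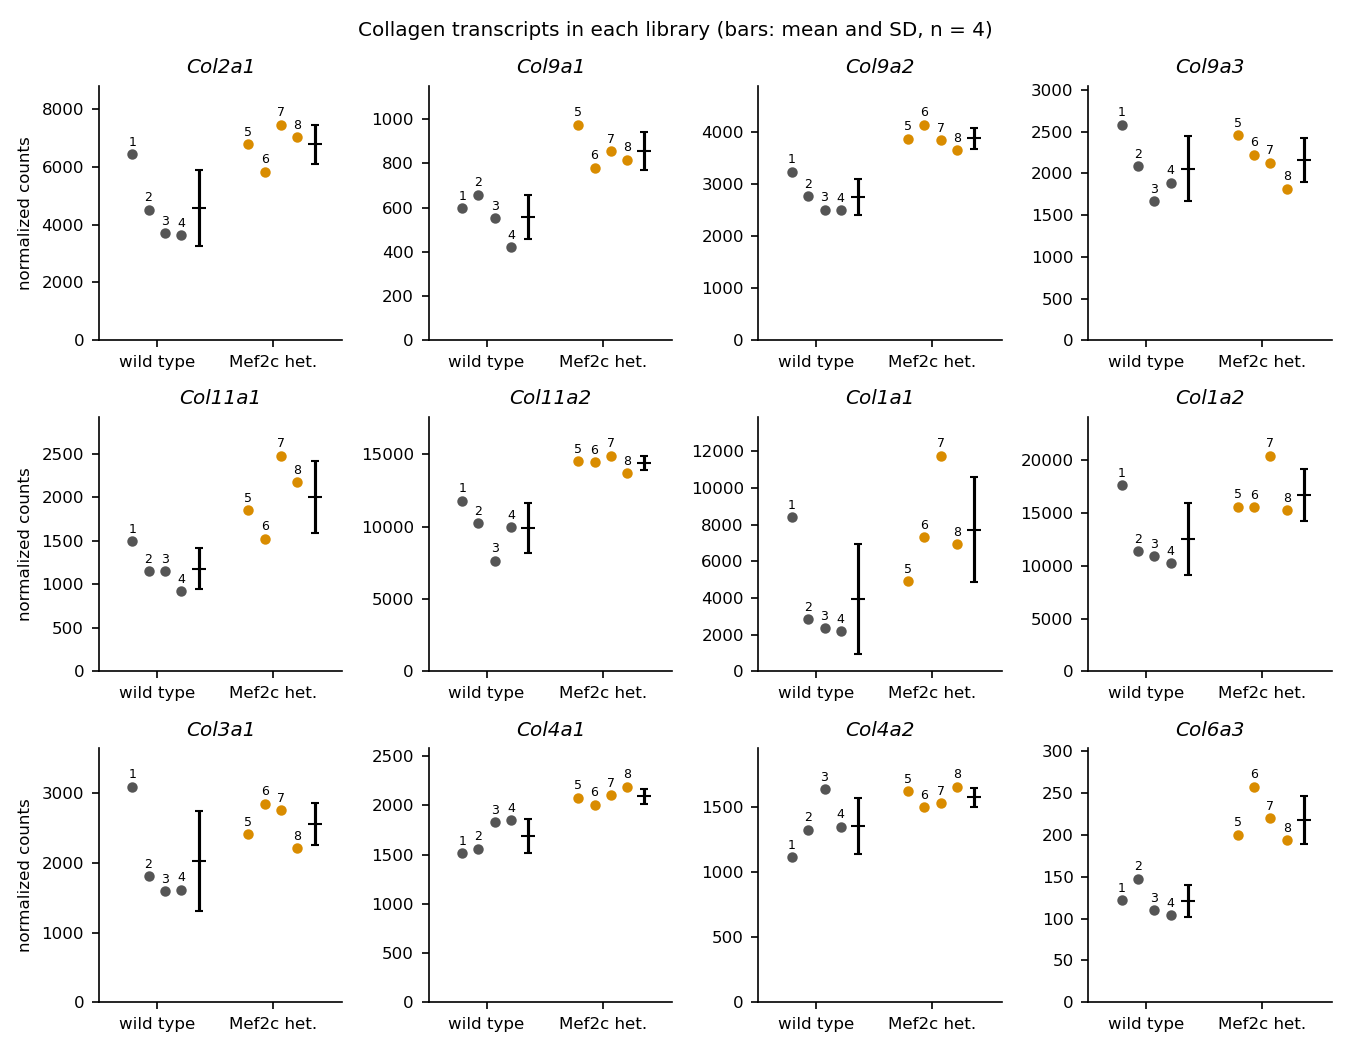
Normalized counts of 12 collagen genes in each library (points, with the library number), with the mean and SD of each group (n = 4) at the right. Col9a1, Col9a2, Col11a1, Col11a2, Col4a1 and Col6a3 have no overlap between groups. Wild-type library 1 is the highest wild-type library for Col1a1, Col1a2, Col2a1, Col3a1, Col9a2, Col9a3, Col11a1 and Col11a2.

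Types I, III and V form the fibrils of bone, dura and the connective sheaths of nerve, with type V as the minor partner that starts them. All 6 of their chains had log2 fold changes above 0, with a median of 0.41, but in 0 of 6 were the groups separate. At an unadjusted p under 0.05 there were 4 of 6, all higher, where 6.72% of all genes were higher. On leaving out library 2, 3 or 7, or with the length correction, only Col1a1 of the 6 was under that level, and on leaving out library 4 or 8 there were 2. Col1a1 (chr11:94936224-94953042) had 8423, 2855, 2349 and 2181 normalized counts in wild type and 4921, 7333, 11749 and 6924 in the heterozygote-labelled libraries. Wild-type library 1 was therefore above all but 1 of the heterozygote-labelled libraries, and the other 3 wild-type libraries were below all of them. The log2 fold change of Col1a1 was 1.14 (SE 0.38, limma-trend adjusted p 0.266). Without wild-type library 1 it was 1.59, with an adjusted p of 0.0243, and without both libraries low in Xist it was 1.78, with an adjusted p of 0.00899. Col1a2 (chr6:4504814-4541544) had 17625, 11366, 10908 and 10225, and then 15555, 15538, 20374 and 15210, with the same library apart. Its log2 fold change was 0.44 (SE 0.17, adjusted p 0.302), and without wild-type library 1 it was 0.61 (adjusted p 0.0750).

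Col3a1, the chain of type III, which accompanies type I in soft tissue, stood at 3093 normalized counts in wild-type library 1, 1591 to 1815 in the other wild-type libraries and 2215 to 2853 in those labelled heterozygote. Its log2 fold change was 0.39 (SE 0.19, limma-trend adjusted p 0.373). Of the type V chains, Col5a1 was at a log2 fold change of 0.35 (limma-trend adjusted p 0.327), Col5a2 at 0.49 (0.337) and Col5a3 at 0.39 (0.432). The remaining fibrillar chains, Col27a1 and Col24a1, had overlapping groups and log2 fold changes of 0.24 and 0.16. Over the 11 fibrillar genes, 11 were above 0, 7 had an unadjusted p under 0.05, 2 did not overlap and the median was 0.44. Of all genes, 6.72% were higher at that level, and 3.40% had separate groups with the heterozygote-labelled libraries higher. With the length correction the 7 became 4, as it did on leaving out library 2 or 3 of the wild type or library 7 of the other group. The count was 5 to 7 on leaving out library 4, 5, 6 or 8, 8 without library 1 and 9 with library weights.

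Of the basement membrane collagens, 7 of 8 had a log2 fold change above 0, and the median was 0.17. At an unadjusted limma-trend p under 0.05 there was 1 of 8, which was higher (12.5%, where 6.72% of all genes were higher). The count ran from 1 to 3 of 8 with single libraries left out (3 on leaving out library 1), and was 0 of 8 with the length correction described below. Col4a1 and Col4a2 encode the 2 chains of the common type IV trimer and lie head to head (chr8:11198423-11312826 on the - strand and chr8:11312805-11449287 on the + strand), with annotated ends that overlap by 22 bases. Col4a1 had 1513, 1560, 1828 and 1850 normalized counts in wild type and 2076, 2006, 2104 and 2188 in the heterozygote-labelled libraries, with no overlap. Its log2 fold change was 0.32 (SE 0.10, limma-trend adjusted p 0.259). Col4a2 had 1117, 1328, 1637 and 1350, and then 1623, 1503, 1530 and 1658. Here wild-type library 3 lay within the range of the heterozygote-labelled libraries, and the log2 fold change was 0.23 (SE 0.11, adjusted p 0.383). Wild-type library 1, the highest wild-type library for type I, was the lowest for Col4a1 and Col4a2.

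The other type IV pairs, known best from kidney and inner ear basement membranes, were much lower per kb and overlapped between groups. Col4a3 and Col4a4, whose starts lie 72 bases apart on chromosome 1, had log2 fold changes of 0.23 and 0.12. Col4a5 and Col4a6, with starts 1309 bases apart on chromosome X, had 0.07 and -0.03. Of the multiplexins, which bridge basement membranes to the matrix beneath, Col18a1 had a log2 fold change of 0.30 (limma-trend adjusted p 0.355), with 3 of 4 heterozygote-labelled libraries above all wild-type libraries, and Col15a1 had 0.12 (0.758).

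Among the 20 other collagens, 16 were above 0 and the median log2 fold change was 0.21. At an unadjusted p under 0.05 there were 5, all higher (25%, where 6.72% of all genes were higher). Besides Col9a1 and Col9a2 these 5 were Col6a3, Col25a1 and Col8a2, and the count ran from 3 to 9 of 20 with single libraries left out. Type VI forms beaded filaments around cells, and Col6a3 (chr1:90765923-90843971) is its alpha 3 chain. Col6a3 had 122.0, 147.5, 110.0 and 103.9 normalized counts in wild type and 199.9, 257.0, 219.6 and 193.1 in the heterozygote-labelled libraries. The groups did not overlap, and the log2 fold change was 0.85 (SE 0.19, limma-trend adjusted p 0.163). Its partner chains Col6a1 and Col6a2 were many times higher per kb, at 271 and 248 against 16.7, and had overlapping groups with log2 fold changes of 0.30 and 0.24 (adjusted p 0.520 and 0.591).

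Col25a1, a transmembrane collagen made by neurons, had 98.6, 120.6, 92.6 and 112.3 normalized counts in wild type and 114.1, 223.1, 214.9 and 160.3 in the heterozygote-labelled libraries. Library 5 was within the wild-type range and the other 3 were above it, with a log2 fold change of 0.70 (SE 0.25, limma-trend adjusted p 0.278). Col8a2, of the short-chain network type VIII, had a log2 fold change of 0.34 (adjusted p 0.348), and its partner Col8a1 of -0.17 (0.670). Col22a1, a FACIT collagen of tissue junctions, was at a log2 fold change of 1.23 (SE 0.58). Leaving out wild-type library 1 gave 1.91, and leaving out library 4 of that group gave 0.80. It reached 362.1 normalized counts in wild-type library 1 and 35.0 to 70.6 in the other wild-type libraries, against 140.1 to 365.6 in those labelled heterozygote. The lowest was Col7a1 at -0.48 (SE 0.38), followed by Col26a1 at -0.35, Col8a1 and Col23a1 (-0.05), none of which had an unadjusted p under 0.05. The remaining members of this class (Col12a1, Col13a1, Col14a1, Col16a1, Col19a1, Col20a1 and Col28a1) had overlapping groups and log2 fold changes from 0.01 for Col19a1 to 0.41 for Col28a1.

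**Figure D4:**
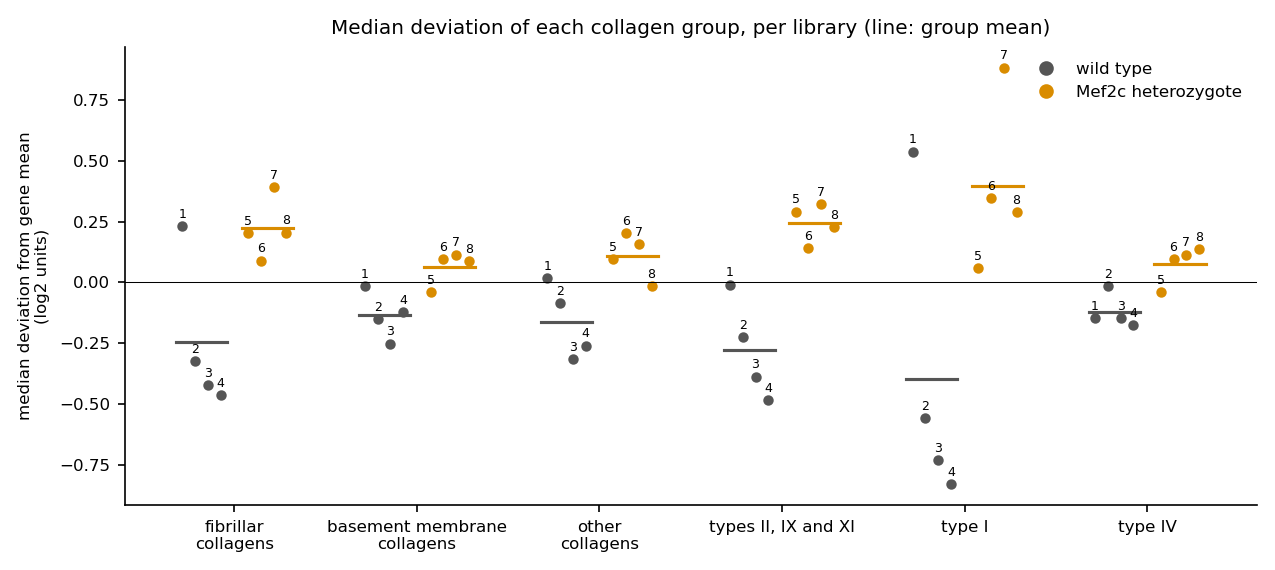
Median deviation of a group of collagen genes from their own means over 8 libraries (log2 units), per library with its number and a line at each group mean, for the 3 classes and for types II, IX and XI, type I and type IV. Wild-type library 1 lies with the heterozygote-labelled libraries for fibrillar collagens (0.23) and type I (0.54), and all 4 heterozygote-labelled libraries lie above all wild-type libraries for types II, IX and XI.

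Ratios between chains within a library do not depend on the scaling between libraries. For 5 ratios a two-sided exact permutation test was made, adjusted over the 5, where 4 libraries against 4 cannot give a p below 0.0286. A ratio alone at that floor would not pass 0.05 after adjustment, and several would have to reach it together. The adjusted p therefore cannot decide whether a single ratio differs. None of the 5 had an exact p under 0.05 before adjustment either. The log2 ratio of Col1a1 to Col1a2 was -1.88 ± 0.55 in wild type and -1.17 ± 0.36 in the heterozygote-labelled libraries (SD, n = 4 each, exact p 0.114, adjusted 0.286). For Col3a1 to Col1a1 it was -0.77 ± 0.46 and -1.53 ± 0.45 (exact p 0.0857, adjusted 0.286), and for Col2a1 to Col1a1 0.42 ± 0.54 and -0.13 ± 0.48 (exact p 0.200, adjusted 0.333). The ratio of Col4a1 to Col4a2 was tight, at 0.32 ± 0.15 and 0.41 ± 0.04 (exact p 0.371), and so was that of Col6a1 to Col6a2, at -0.17 ± 0.08 and -0.11 ± 0.09 (exact p 0.314), both with an adjusted p of 0.371.

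The enzymes, receptors and partners of collagens were read from the same fit. Of 73 genes in 5 lists, 0 had a limma-trend adjusted p under 0.05, while at an unadjusted p under 0.05 there were 16 higher (21.9%) and 2 lower, beside the 6.72% higher and 7.34% lower of all genes, against which the counts of single lists below are also to be read. Chaperones and modifying enzymes of the endoplasmic reticulum had 1 of 20 at that level, with a median log2 fold change of 0.08. That gene was Mia3, which loads procollagen into transport carriers (log2 fold change 0.20, limma-trend adjusted p 0.329), followed by the lysyl hydroxylase Plod1 (0.25, adjusted p 0.355). Procollagen processing and cross-linking had 3 of 15, all higher. Adamts2, the N-propeptidase of fibrillar procollagens, had 443.6 to 708.1 normalized counts in wild type and 783.8 to 1032 in the heterozygote-labelled libraries (log2 fold change 0.55, adjusted p 0.236). Tll1, a C-propeptidase of the tolloid family, had 56.0 to 105.4 and 115.3 to 174.3 (0.92, adjusted p 0.236).

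Collagen receptors had 3 of 11 higher and 1 lower at an unadjusted p under 0.05. Their median log2 fold change was 0.32, and 0.08 with the length correction described below. Adgrg6, an adhesion receptor that binds type IV collagen and is required for Schwann cell myelination, had 198.6 to 328.2 normalized counts in wild type and 361.7 to 507.2 in the heterozygote-labelled libraries (log2 fold change 0.83, limma-trend adjusted p 0.160). Ddr2, a receptor tyrosine kinase for fibrillar collagens, had 2078 to 2688 and 2832 to 3289 (0.38, adjusted p 0.214). The degradation list, which also holds inhibitors of the proteases, had 4 of 12 higher and 1 lower at that level. Higher were Mmp8, Mmp9 and the inhibitors Timp2 and Timp3, and lower was the inhibitor Timp4. The neutrophil collagenase Mmp8 had 1.8 to 16.9 and 19.2 to 54.4 normalized counts (log2 fold change 2.10, adjusted p 0.255, with the lowest value worth under 3 reads). Timp2 was at a log2 fold change of 0.27 (adjusted p 0.285). Basement membrane partners were above 0 in 15 of 15, with 5 at an unadjusted p under 0.05 and a median of 0.23, which was 0.07 with the length correction described below. Perlecan (Hspg2) had 2715 to 3122 and 3264 to 4403 normalized counts (log2 fold change 0.44, adjusted p 0.178), and the laminin chain Lama2 1692 to 2154 and 2354 to 2581 (0.32, adjusted p 0.259).

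Many cell types of the cochlea and nerve make collagens, so marker levels of other cells that a dissected nerve could hold are set beside them. The 9 chondrocyte markers of 11 that were measured had summed levels of 12499 to 18677 normalized counts in wild type and 15412 to 16988 in the heterozygote-labelled libraries, which overlap, with 7 of 9 higher (Matn1 and Matn3 were not analysed here). At an unadjusted limma-trend p under 0.05, 2 of these 9 were higher and 0 lower. Of all genes, 6.72% were higher and 7.34% lower at that level, which also holds for the counts of the next list. Acan, the cartilage proteoglycan, did not overlap, at 1661 to 1820 and 2355 to 3954 (log2 fold change 0.85, limma-trend adjusted p 0.0632). Cnmd, with the highest values of the list, was lower, at 5182 to 10678 and 4709 to 6770 (log2 fold change -0.35, adjusted p 0.414), and so was Snorc (-0.17, adjusted p 0.893). The 12 markers of supporting and lateral wall cells had sums of 162529 to 203404 and 177586 to 209727, with 7 of 12 higher. Most of each of these sums was Coch, at 100953 to 133105 and 109735 to 141874 normalized counts. Its log2 fold change was 0.19 (limma-trend adjusted p 0.643). Tecta and Otog, which encode proteins of the tectorial membrane and other acellular gels of the inner ear, were the 2 of these 12 that were higher at an unadjusted p under 0.05. Emilin2, an extracellular matrix glycoprotein, was the 1 that was lower (log2 fold change -1.01, adjusted p 0.329). It had 3418 to 4610 normalized counts in wild type and 3367, 606.4, 2474 and 3143 in the heterozygote-labelled libraries, with library 6 far below the rest. Tecta had 34.7 to 232.8 normalized counts in wild type and 453.0, 311.9, 851.9 and 821.3 in the heterozygote-labelled libraries (log2 fold change 2.91, adjusted p 0.0632). Library 6 had the lowest value of the heterozygote-labelled libraries for Tecta, Otog, Acan, Col2a1, Col9a1 and Col11a1, and the highest for Col9a2.

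The 12 osteoblast and osteocyte markers were all above 0, with a median log2 fold change of 0.54. At an unadjusted limma-trend p under 0.05, 4 were higher, where 6.72% of all genes were. Their sums were 44569 to 52894 in wild type and 46404 to 62033 in the heterozygote-labelled libraries. Most of each sum was Spp1, at 38592 to 46501 and 36943 to 53307 normalized counts (log2 fold change 0.0058). Bglap, the bone matrix protein osteocalcin, reached 4399 normalized counts in wild-type library 1, against 300.5 to 987.6 in the other wild-type libraries, and 3876 in heterozygote-labelled library 7 and 930.0 to 1288 in the other 3. Those 2 libraries were also the highest of their groups for Col1a1, Col1a2, Col5a1, Col5a2 and Col22a1. Fibroblast markers had 9 of 12 higher with a median of 0.10 and sums of 31739 to 45753 and 35508 to 43643. Endothelial markers had 5 of 10 higher but 3 lower and 0 higher at an unadjusted p under 0.05, and their sums did not overlap, at 8388 to 10547 in wild type and 7418 to 8176 in the heterozygote-labelled libraries. For pericyte and smooth muscle markers, 6 of 10 were higher and the sums were 7356 to 9248 against 8425 to 9348. At an unadjusted limma-trend p under 0.05, 1 of these 10 was higher and 3 were lower. Of all genes, 6.72% were higher and 7.34% lower at that level. Oligodendrocyte markers were lower in 11 of 12 genes, with sums of 115143 to 150738 against 58198 to 77509. Of these 12, 5 had a limma-trend adjusted p under 0.05, against 0.0807% of all genes. Lower too were 7 of 8 astrocyte markers, with 0 at that adjusted level. Neutrophil markers were higher in 5 of 5 measured (Camp, Elane and Mpo were not analysed here), 4 of them at an unadjusted limma-trend p under 0.05. Their sums were 134.1 to 2550 against 717.9 to 6391, and Ltf made up 2176 of the 2550, in wild-type library 1. S100a8, S100a9 and Ngp did not overlap (S100a9 at 29.0 to 54.1 and 111.5 to 1689), while Ltf and Lcn2 did. Of the macrophage markers 8 of 10 were lower, with 0 at an unadjusted p under 0.05. The part of any of these cells in the collagen differences was not tested.

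Collagen transcripts are long, so the fit was repeated with the trend of each library on transcript length removed. The longest transcript had a median of 5.93 kb over the collagen genes and 3.41 kb over all genes tested. After this correction the median log2 fold change of collagen genes was 0.14, 27 of 39 were above 0, and 7 had an unadjusted p under 0.05, all higher, against 3.97% of all genes. These 7 were Col1a1, Col2a1, Col6a3, Col9a1, Col9a2, Col11a1 and Col11a2. Col9a2, with a transcript of 2.92 kb, was at 0.51 and passed, with a limma-trend adjusted p of 0.0485. The set of types II, IX and XI had a median of 0.50 after it and 0.58 before it. Basement membrane collagens had a median of 0.0041 after it and 0.17 before, and Col4a1 was at 0.15.

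**Figure D5:**
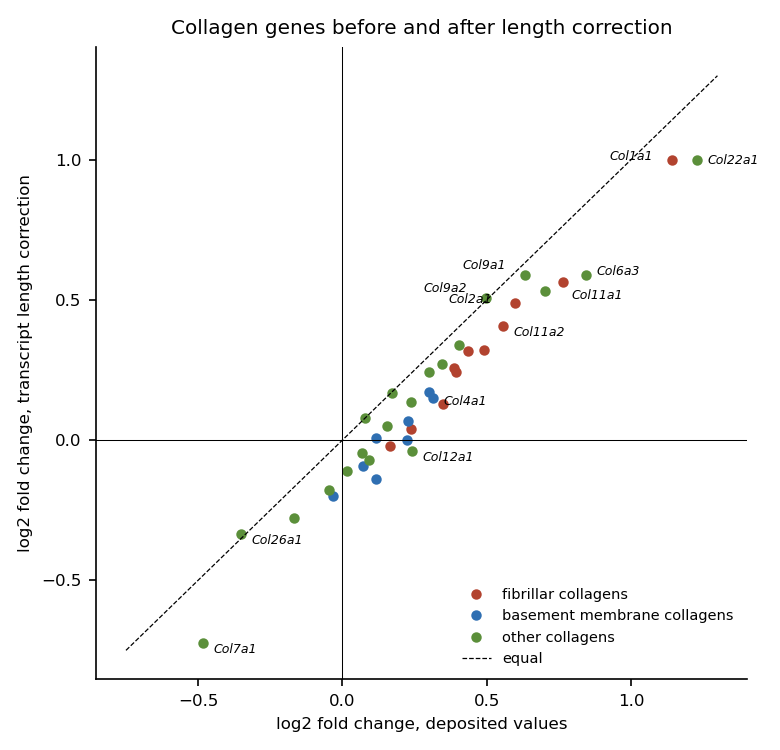
Log2 fold change of each collagen gene with the trend on transcript length removed (vertical axis) against that from the deposited values (horizontal axis), coloured by class, with a dashed line of equality. Col9a2 stays at 0.51, while the basement membrane collagens lie around 0.

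Wild-type library 1 stood apart for several fibrillar genes. Without it, 20 collagen genes had an unadjusted p under 0.05, all higher, against 6.50% of all genes, and 3 passed the adjusted threshold with limma-trend (Col1a1, Col2a1 and Col9a2, adjusted p 0.0243, 0.0243 and 0.0244). In 14 collagen genes the groups were then separate, against 5.28% of all genes. By class, the count at an unadjusted p under 0.05 was then 8 of 11 fibrillar, 3 of 8 basement membrane and 9 of 20 other collagens, and the medians were 0.61, 0.20 and 0.26. Without both libraries low in Xist, 19 had an unadjusted p under 0.05, all higher, against 7.16% of all genes, and Col1a1 passed. Other libraries moved the count down. Without heterozygote-labelled library 7 it was 8, against 4.96% of all genes higher at that level, without wild-type library 2 it was 11, against 6.42%, and without wild-type library 3 it was 10, against 11.6%.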

How the data were processed

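The table the authors deposited gives each gene a signal value in every library. Judged from the values, these are read counts scaled by a size factor of the library. STAR, Partek, DESeq2 and mm10 are named in the submitters' processing notes without version or role, and annotation, counting and use of strand are not given in the sources used here. The deposited columns also hold the authors' comparison: p-value, FDR, ratio, log2 ratio and a score, the signed fold change, which was not used, per the file headers. Per the labels' protocols, RNA with an integrity number under 7 was excluded, and 50 ng of input went into directional poly(A) libraries.

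What 1 read is worth was estimated for each library from the step that makes the largest share of values whole multiples within rounding. That share, 88.4% to 91.7%, was too low to recover reads and run a count model. The step gives the depth, and 3 reads are worth 2.37 to 3.89 normalized counts.

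The 14870 genes that reached 10 normalized counts in 4 or more libraries were analysed as log2(value + 1) with limma-trend (limma 3.58.1, R 4.3.3) and Benjamini-Hochberg adjustment over all of them. The pseudocount understates changes of low genes. No covariate was used. Chain ratios used exact permutation tests (scipy 1.17.1). The fit was tested on simulated data. Transcript lengths are those of the longest GENCODE M21 transcript, matched by symbol for 97.6% of tested genes and for all 39 collagen genes. Upstream sequences are from RefSeq (GRCm38.p6).

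The collagen genes, the lists and the tests were chosen with earlier results of these data known. Named genes are those with an unadjusted p under 0.05, the 4 highest per kb and the largest change in each class, the genes of the ratios, and the 2 smallest p in each pathway list; others were named after their values were seen. Col6a4, Col6a5, Col6a6, Col10a1 and Col17a1 were not analysed here. The alternatives were other pseudocounts (0.1 and 10), filters (none and 50) and scalings (quantile, upper quartile), library weights, a correction for transcript length (loess, span 0.5), a fit lacking both low-Xist libraries, and each library left out in turn.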

Additional observations from a re-analysis of the deposited data

Results flagged for a closer look

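In each group of 4 libraries, the gap of the highest or lowest library to its neighbour was divided by the range of the group, for the 39 collagen genes and 5 chain ratios. Of 88 groups, 10 stood out by Dixon's 95% critical value, where chance gives 4.4. Wild-type library 1 was the library apart in 7 of them. It was high for Col1a1 (gap ratio 0.892, 8423 normalized counts against 2181 to 2855 in the other wild-type libraries), Col1a2 (0.846), Col3a1 (0.851) and Col5a1 (0.919, 821.5 against 552.0 to 573.7). It was also high for Col22a1 (0.891, 362.1 against 35.0 to 70.6) and Col26a1 (0.881, 437.3 against 145.1 to 180.0), and low for the log2 ratio of Col2a1 to Col1a1 (0.931, -0.39 against 0.66 to 0.74).

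The remaining 3 concern other libraries. Heterozygote-labelled library 7 was high for Col1a2 (gap ratio 0.933, 20374 normalized counts against 15210 to 15555). Wild-type library 2 was high for Col4a4 (0.911, 337.5 against 190.7 to 203.8). Heterozygote-labelled library 6 was high for Col4a5 (0.897, 582.9 against 433.2 to 448.6).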

How the results depend on the processing

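Over 17 alternatives, Col1a1, Col2a1, Col6a3, Col9a1, Col9a2, Col11a1 and Col11a2 had an unadjusted limma-trend p under 0.05 in all 17, and every collagen gene at that level was higher. The count past the adjusted threshold, 0 with all libraries, was 5 with library weights (Col1a1, Col2a1, Col9a2, Col11a1 and Col11a2), 1 with the length correction (Col9a2), 1 without the libraries low in Xist (Col1a1) and 0 to 3 with single libraries left out. The lowest of the library weights was that of wild-type library 1, at 0.299, against 0.668 to 1.9 for the others. The weighted fit is thus not independent of the fit without that library. The count at an unadjusted p under 0.05, 13, was 7 with the length correction (3.97% of all genes higher at that level) and 8 to 20 with single libraries left out, over which the share of all genes higher at that level ran from 3.85% (without heterozygote-labelled library 8, 11 collagen genes) to 11.6% (without wild-type library 3, 10 collagen genes). Fewer libraries also lower the power of a fit; the cause of each change was not tested. The median of basement membrane collagens was 0.0041 with the length correction, and the other class medians moved by less than the spread between libraries. Of 22 named collagen genes, 20 kept their direction in all 17; Col8a1 was at 0.033 without the libraries low in Xist, and Col9a3 ranged from -0.014 (without wild-type library 3) to 0.195 (without wild-type library 1) with single libraries left out. The 5 chain ratios kept direction and did not pass in their 11 alternatives, where those with a library left out cannot give an exact p under 0.05. With all libraries kept, a ratio alone at the smallest exact p could not pass after adjustment over the 5. Two-sided tests of so few libraries and the depth limit what can be resolved for low genes such as Col20a1. No paired analysis was possible because replicate numbers are not shared between the groups.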
